A study of Mus musculus with 2 samples.

Results

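Regulatory-like T cells without CD8 transcripts were taken from 2 single-cell libraries of leukocytes that infiltrate TSA mammary tumours. A cell was a member when it held at least 1 unique molecular identifier (UMI, a tag that marks 1 captured transcript) of Cd3e and at least 1 of Cd3d or Cd3g, none of Cd8a, Cd8b1 or Ncr1, and a UMI of at least 2 of 5 genes: Foxp3, Il2ra, Ikzf2, Tnfrsf4 and Ctla4. In addition the C1q transcripts C1qa, C1qb and C1qc, which are abundant in tumour macrophages, had to stay under 0.2% of its UMIs. The rule found 119 of 6198 cells, 59 of 2922 in the untreated library and 60 of 3276 in the NAM library. The members were thus chosen by the measured UMIs of these genes, whose values are given as a description only.

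Regulatory T cells are mostly CD4 T cells that hold back other lymphocytes, and Foxp3 encodes the transcription factor that fixes their identity. Il2ra encodes the high-affinity subunit of the interleukin 2 receptor, Ikzf2 the factor Helios, Ctla4 a receptor that competes with CD28 for its ligands, and Tnfrsf4 the costimulatory receptor OX40. In tumours such cells often carry an activated surface, with receptors of the TNF family, and they are known for limiting CD8 T cell responses.

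Both groups were Balb/c mice bearing TSA cells (a mammary carcinoma line) under the skin. One group was left untreated and the other drank water with 0.5% nicotinamide (NAM, a form of vitamin B3) for 10 days. Tumours of 3 mice per group were dissociated and pooled, CD45+ leukocytes were enriched on magnetic beads, and each pool became 1 library, loaded from suspensions with many dead cells. With 1 library per group no test between groups was possible, and NAM cannot be told apart from whatever else differed between the pools. All intervals are 95% and cover counting error only, not differences between mice or libraries, and they were not adjusted for the number of genes.

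Members were shallow cells. They held a median of 4673 UMIs in the untreated library (range 3084 to 20087) and 4162.5 in the NAM library (3001 to 20654), against 9056 and 9128 over all cells. Summed over members, 353687 and 347626 UMIs stood behind each level, so that 3 UMIs correspond to 8.48 and 8.63 CPM (the unit in which UMIs of every cell set are scaled to the same total). Levels are CPM throughout, and ratios were taken for 1 gene between cell sets or libraries, never between genes. Where the most abundant gene of a list is named, this only says why it was picked. The libraries shared 11 cell barcodes, none of them in a member.

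The number of rule genes per cell is given first, as a description of the selection. Among the 84 untreated and 83 NAM CD8-negative T cells, 4 or all 5 of the genes were detected more often than 2 or 3 (the histogram of marker genes per cell). In the untreated library 22 cells held all 5 genes, 23 held 4, 7 held 3, 7 held 2, 19 held 1 and 6 held none. In the NAM library the counts were 19, 20, 9, 12, 14 and 9 in the same order, so that cells with 2 or 3 genes were more frequent than in the untreated library.

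**Figure D1:**
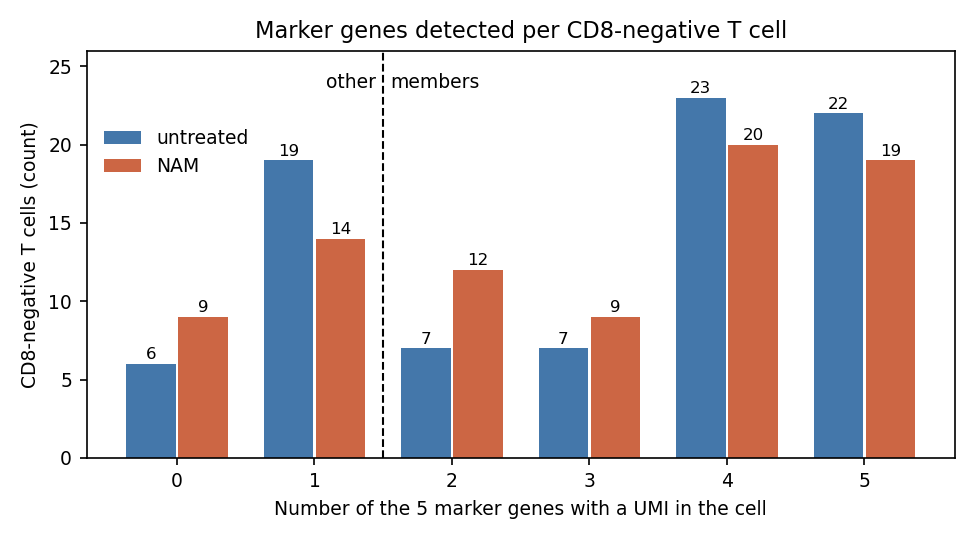
Number of CD8-negative T cells (y axis) by how many of Foxp3, Il2ra, Ikzf2, Tnfrsf4 and Ctla4 had a UMI (x axis), untreated in blue and NAM in orange, with the count above each bar. Cells right of the dashed line are members, and 22 untreated and 19 NAM cells held all 5 genes.

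Foxp3 (chrX:7573644-7595245, plus strand) had a UMI in 38 of 59 untreated members, or 64.4% (50.9 to 76.4), and in 34 of 60 NAM members, or 56.7% (43.2 to 69.4). After every cell was thinned to 3000 UMIs the shares were 49.2% and 45.0%. No Foxp3 UMI was found in the 25 untreated and 23 NAM CD8-negative T cells outside the rule. The exact intervals allow shares of up to 13.7% and 14.8%, and a floor of 3 cells is 12% and 13.04% of each set. Foxp3 was found in 2 of 96 and 5 of 152 CD8 T cells. Of macrophage-type cells (C1q at 0.5% of UMIs or more and no Cd3 UMI), 3 of 1772 and 1 of 1952 held it. Such cells should lack the gene, and their median depth was 9635.5 and 9669 UMIs.

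The other rule genes were detected more often than Foxp3 or about as often. Tnfrsf4 (chr4:156013843-156016612, plus strand) had a UMI in 58 of 59 and 56 of 60 members, Ikzf2 (chr1:69531214-69687245, minus strand) in 52 and 53, Ctla4 (chr1:60887000-60915832, plus strand) in 49 and 46, and Il2ra (chr2:11642807-11693193, plus strand) in 40 and 37. Ikzf2 also had a UMI in 13 of 25 and 13 of 23 of the CD8-negative T cells outside the rule, and in 38 of 96 and 77 of 152 CD8 T cells, where Tnfrsf4 was seen in 39 and 78. The label was checked on Cd4, which the rule did not use. It had a UMI in 33 of 59 members (55.9%, 42.4 to 68.8) and 29 of 60 (48.3%, 35.2 to 61.6). Outside the rule it was seen in 4 of 25 and 1 of 23 CD8-negative T cells, in 6 of 96 and 5 of 152 CD8 T cells, and in 7.56% and 4.97% of macrophage-type cells. At an equal depth of 3000 UMIs the Cd4 shares were 40.7% (untreated) and 36.7% (NAM) in members, against 2.82% and 2.05% in macrophage-type cells.

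**Figure D2:**
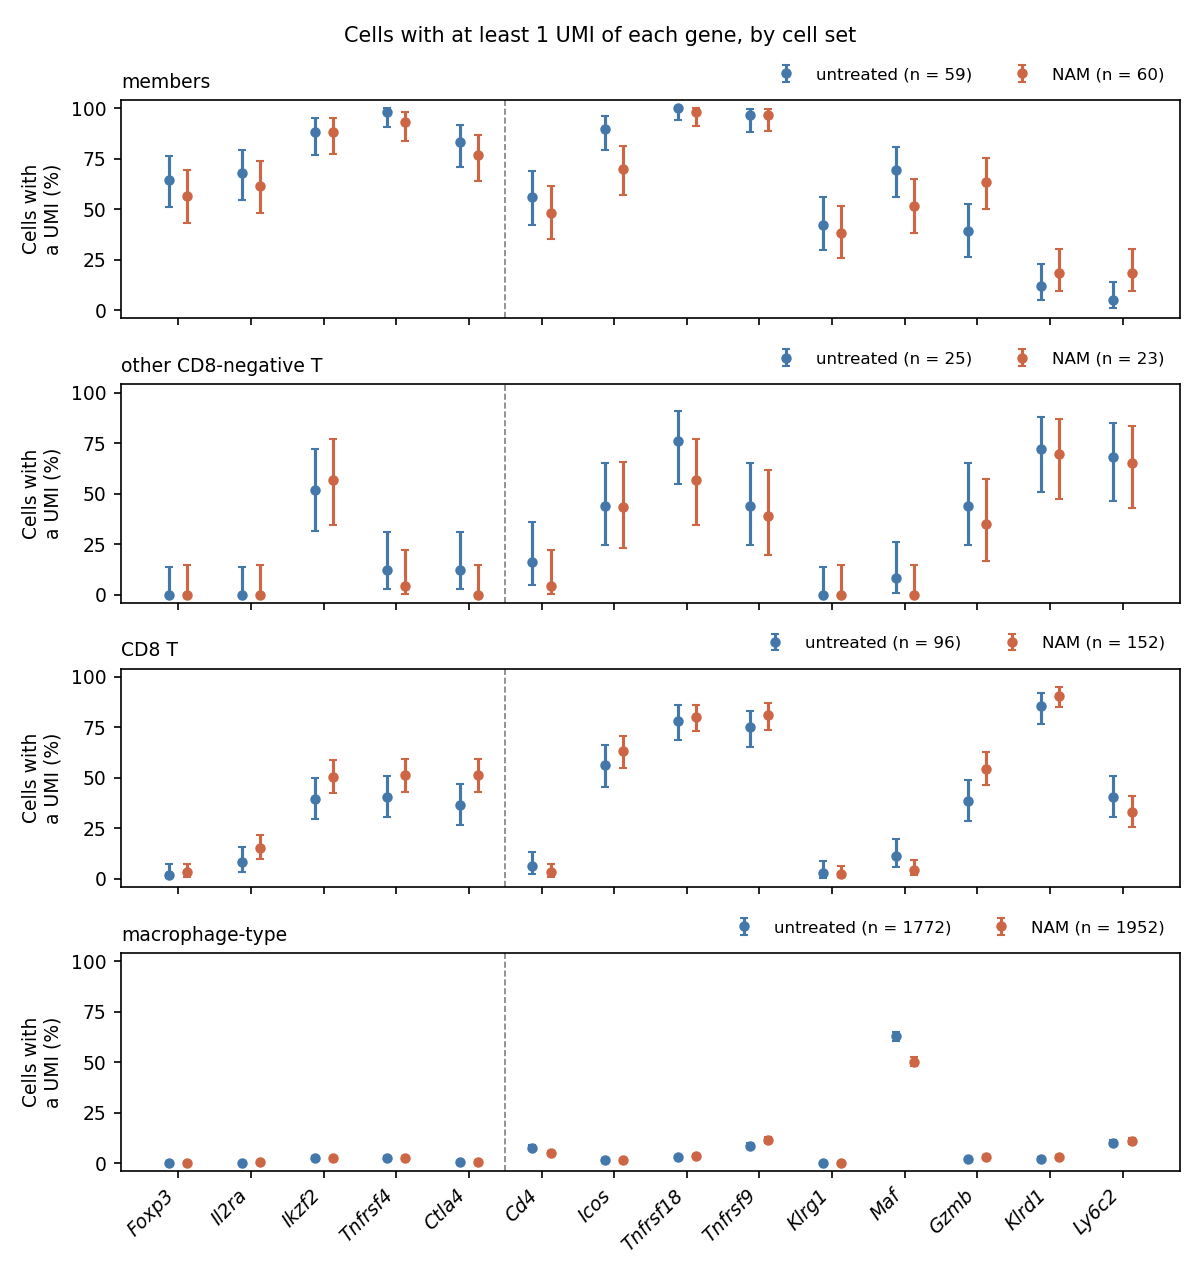
Share of cells with at least 1 UMI of each gene (y axis, percent, unthinned) in members, in other CD8-negative T cells, in CD8 T cells and in macrophage-type cells, untreated in blue and NAM in orange; bars are exact 95% binomial intervals and genes left of the dashed line are in the rule. Cd4, Icos, Tnfrsf18, Tnfrsf9 and Klrg1 have their highest shares in members, Klrd1 and Ly6c2 have low shares there, and Maf is also seen in 62.9% and 50.2% of macrophage-type cells.

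At the edge of the rule lay 7 untreated and 12 NAM members with exactly 2 rule genes. None of them held a Foxp3 UMI, which is itself a rule gene, and 5 and 5 held a Cd4 UMI. A further 6 untreated and 8 NAM cells were removed only by the C1q limit. The highest C1q share inside the rule was 0.149% and 0.189%, and the lowest outside it 0.229% and 0.210%. Beyond the edge, summed markers of macrophages made up 2491 CPM of the untreated and 1640 CPM of the NAM members, against 56286 and 55758 CPM in macrophage-type cells. In the untreated library 1 member held 299 macrophage-marker UMIs, and in the NAM library another held 97 neutrophil-marker UMIs. Another untreated member held 124 UMIs of markers of type 2 innate lymphoid cells. Of 10 NK cell markers, 2 had a UMI in untreated and 4 in NAM members, with Ncr1, which the rule used, at 0. Of the 7 B cell markers matched, 2 had UMIs in untreated members (Cd79b with 4 and Jchain with 1) and 1 in NAM members (Cd79b with 2), with Cd79a, Ms4a1 and Pax5 at 0. The gamma delta T cell genes Sox13 and Cd163l1, the 2 matched of that list, were at 0 in both libraries. Among the NAM CD8-negative T cells outside the rule, 1 cell held 494 macrophage-marker UMIs. No doublet caller was run, and the part of other cells' RNA in the values below was not tested beyond the alternatives given.

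The first comparison asked whether the share of these cells differed with NAM. Members made up 2.02% (1.54 to 2.60) of untreated leukocytes and 1.83% (1.40 to 2.35) of NAM leukocytes, a log2 ratio of -0.14 (-0.68 to 0.40). Of all T cells they were 32.8% (25.98 to 40.2) and 25.5% (20.1 to 31.6), a log2 ratio of -0.36 (-0.90 to 0.18). Both intervals take in 0, so neither difference was detectable at this number of cells. Within CD8-negative T cells the shares were 70.2% and 72.3%. CD8 T cells, the other large T cell set, were 3.29% and 4.64% of leukocytes, a log2 ratio of 0.50 (0.12 to 0.88). Of all T cells they were 53.3% and 64.7%, a log2 ratio of 0.28 (-0.10 to 0.66), an interval that takes in 0.

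The next comparison asked what members carried beyond the rule genes. Within each library the summed UMIs of members were set against those of the 25 and 23 other CD8-negative T cells and of the 96 and 152 CD8 T cells. The sets were cut by transcripts of the same cells, so these ratios describe and do not test. Against the other CD8-negative T cells, 232 of 2023 genes (11.5%) were at least 1.5-fold higher in both libraries and 72 (3.56%) at least 1.5-fold lower. Against CD8 T cells, 267 of 3494 genes (7.64%) were higher and 145 (4.15%) lower. With median-of-ratios scaling the latter counts became 184 and 209, since that scaling moved all log2 ratios against CD8 T cells down by 0.14 (untreated) and 0.16 (NAM).

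Klrg1 (chr6:122270596-122282882, minus strand), a lectin-type receptor of differentiated lymphocytes that binds cadherins, stood first in both comparisons. It was at 305 CPM in untreated and 219 CPM in NAM members, with a UMI in 25 of 59 and 23 of 60 cells. None of the other CD8-negative T cells held a Klrg1 UMI, which makes the level at least 12.6-fold (untreated) and at least 10.3-fold (NAM) higher in members, against a floor of 3 UMIs per library. CD8 T cells held 9.87 and 6.14 CPM, log2 ratios of 4.82 (3.68 to 6.60) and 5.03 (3.87 to 6.82). Within members, then, a Klrg1 UMI was detected in a minority of cells, which at this depth does not show that the others lack the transcript. In the other T cells its level was near or at 0.

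Transcription factors came next. Maf (chr8:115682942-115707794, minus strand), a factor of interleukin 10-producing T cells, was at 271 and 216 CPM in members against 37.5 and 14.7 CPM in CD8 T cells, log2 ratios of 2.83 (2.14 to 3.65) and 3.82 (2.98 to 4.89). Batf (chr12:85686669-85709087, plus strand), an AP-1 factor of effector regulatory T cells in tissue, was at 303 and 198 CPM against 40.4 and 21.3 CPM in the other CD8-negative T cells, log2 ratios of 2.78 (1.64 to 4.56) and 3.01 (1.61 to 5.53). Ikzf4, which encodes the Helios relative Eos, was at 110 and 77.7 CPM against 27.6 and 27.02 CPM in CD8 T cells. Of the regulatory T cell factors outside the rule, 5 of 8 measured were higher in both libraries than in the other CD8-negative T cells and 6 of 10 higher than in CD8 T cells, where 1 was lower.

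The costimulatory and TNF receptors were mostly higher in members. Of 11 measured outside the rule, 10 were higher in both libraries than in the other CD8-negative T cells, with medians of 1.71 and 2.06 on the log2 scale beside 0.12 and 0.15 over all genes. Against CD8 T cells 7 of 11 were higher, with medians of 1.36 and 0.80 beside 0.10 and 0.10. Tnfrsf9, which encodes 4-1BB, was at 1988 and 1864 CPM in members, at 331 and 249 CPM in the other CD8-negative T cells and at 811 and 1092 CPM in CD8 T cells. Tnfrsf18, which encodes GITR, was at 1247 and 1453 CPM against 369 and 497 CPM in CD8 T cells. Icos, a relative of CD28, was at 619 and 489 CPM against 241 and 278 CPM in CD8 T cells. The exception against the other CD8-negative T cells was Cd28 itself, at 189 and 222 CPM in members and 291 and 149 CPM in those cells.

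Other genes high in members encode receptors and surface molecules. Il1r2, the interleukin 1 decoy receptor, was at 317 and 291 CPM against 15.8 and 46.7 CPM in CD8 T cells. Ly6a, which encodes Sca-1, was at 1730 and 1645 CPM against 174 and 242 CPM. The tetraspanin gene Cd81 (chr7:143052739-143067934, plus strand) was at 828 and 757 CPM against 96.7 and 130 CPM in CD8 T cells and 32.3 and 92.4 CPM in the other CD8-negative T cells. Ccr2, a chemokine receptor for tissue entry, was at 223 and 293 CPM against 33.5 and 67.5 CPM in CD8 T cells. Ccr8, a receptor known from tumour regulatory T cells, was sparse, with a UMI in 9 of 59 and 12 of 60 members and in 2 of 96 and 7 of 152 CD8 T cells. Against CD8 T cells, Tspan32, Slc15a3, Arl5a, Bmyc, Swap70, Cd4 and Fam46a were also among the 12 highest. Against the other CD8-negative T cells, Nrn1, Sdcbp2, Slc15a3, Cd6, Fam46a, Stx11 and Serpina3g were.

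The suppressive effectors were less uniform. Of 5 measured outside the rule, 3 were higher and 1 lower than in the other CD8-negative T cells, and of 6 measured 1 was higher and 1 lower than in CD8 T cells. Izumo1r (chr9:14885814-14903949, minus strand), a folate receptor family gene of regulatory T cells, was at 277 and 164 CPM against 67.1 and 62.6 CPM in CD8 T cells. Ebi3, a subunit of interleukin 35, was at 87.6 and 48.9 CPM against 1.97 and 3.68 CPM. Lag3, an inhibitory receptor, was lower than in CD8 T cells (382 and 414 CPM against 720 and 776) but higher than in the other CD8-negative T cells (72.6 and 49.7 CPM). Il10 had a UMI in only 5 of 59 and 6 of 60 members, and in 26.4% and 12.4% of macrophage-type cells. After thinning, the Il10 shares were 8.47% and 8.33% in members and 14.3% and 6.15% in macrophage-type cells. Tigit held 1 and 3 UMIs.

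**Figure D3:**
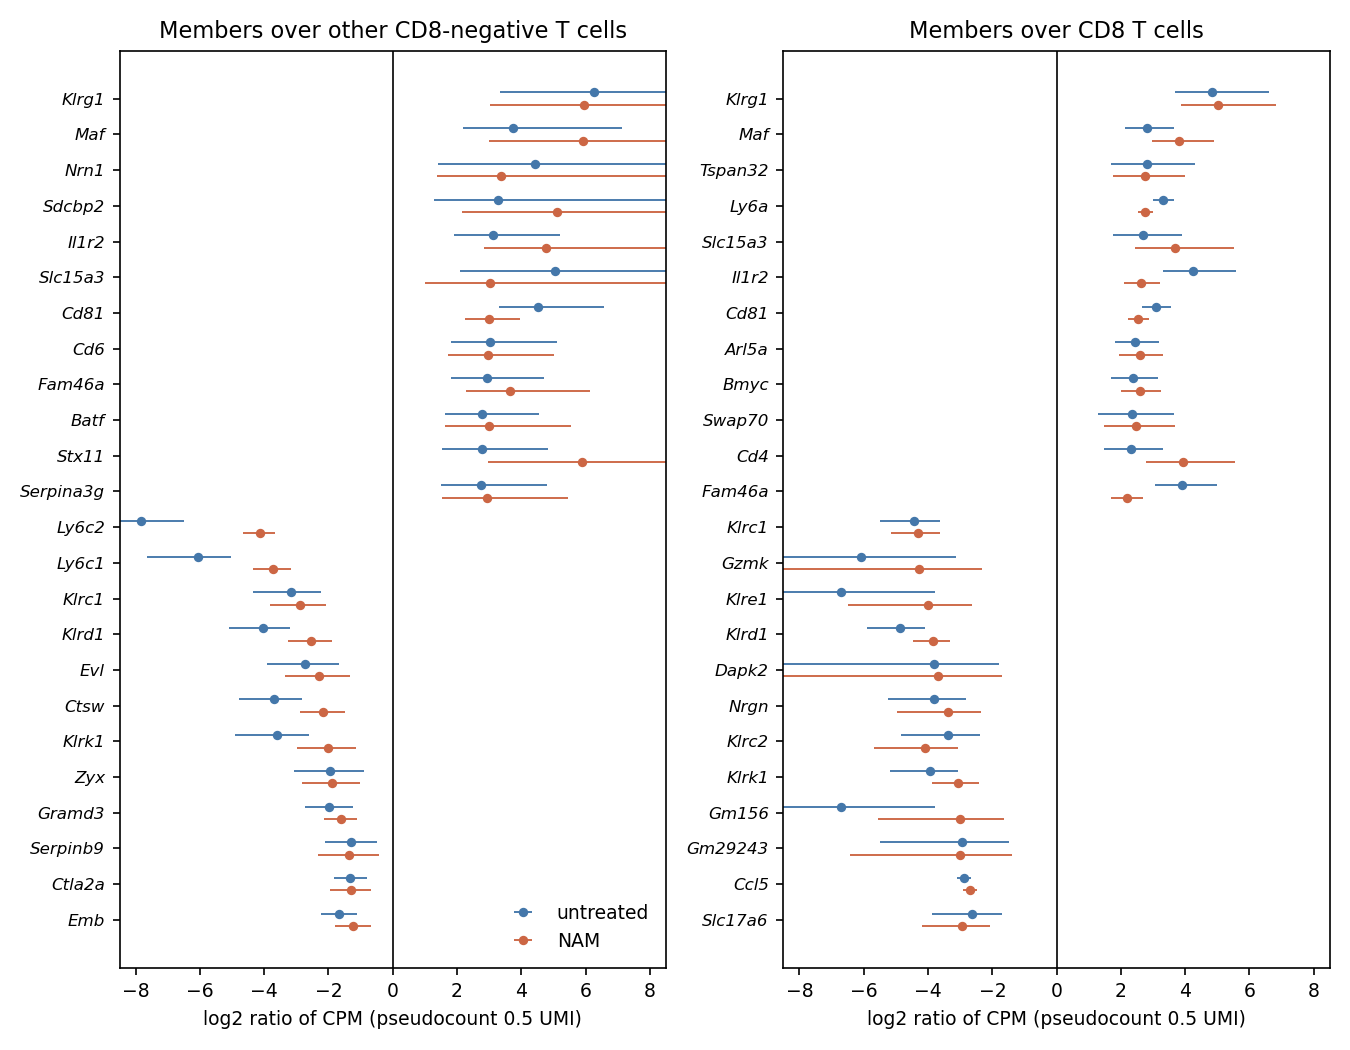
Log2 ratio of summed CPM (x axis) for the 12 highest and 12 lowest genes of each comparison, members over other CD8-negative T cells on the left and over CD8 T cells on the right, untreated in blue and NAM in orange, with exact 95% conditional binomial intervals cut at the frame. The genes were picked by the ratio nearer to 0 of both libraries, so their shared side of 0 was fixed by the choice. Where the other set held no UMI, as for Klrg1 on the left, the point depends on the pseudocount of 0.5 UMI and is no bound.

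Of 14 cytotoxic effector genes measured against CD8 T cells, 11 were lower in both libraries and none higher, with medians of -3.65 and -2.46. Klrd1, the CD94 chain of NK receptors, was at 33.9 and 77.7 CPM in members and 1030 and 1127 CPM in CD8 T cells, log2 ratios of -4.87 (-5.89 to -4.11) and -3.83 (-4.47 to -3.31). Its partners Klrc1 and Klrc2, together with Klrk1, which encodes NKG2D, and Klre1, followed the same order, and so did Gzmk, Ccl5, Dapk2, Nrgn, Gm156, Gm29243 and Slc17a6. Klrc1 and Klrc2 are close copies, between which reads may have been divided. Prf1, which encodes perforin, had no UMI in either library of members against 35.5 and 20.9 CPM in CD8 T cells, at least 4.19-fold and at least 2.42-fold lower. Of the genes not lower in both libraries the most abundant was Gzmb (chr14:56258838-56262260, minus strand), granzyme B, at 693 and 926 CPM in members against 452 and 851 CPM in CD8 T cells. Granzyme B transcripts were therefore found in members in which no perforin transcript was detected. Against the other CD8-negative T cells 6 of 10 cytotoxic genes were lower and 1 higher.

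Against the other CD8-negative T cells the lowest genes were the surface antigen genes Ly6c2 and Ly6c1, followed by Klrc1, Klrd1, Evl, Ctsw, Klrk1, Zyx, Gramd3, Serpinb9, Ctla2a and Emb. Ly6c2 was at 8.48 and 112 CPM in members and 2276 and 1989 CPM in those cells. Ly6c1 and Ly6c2 are near-identical copies, so their separate levels are uncertain. The summed UMIs of the other CD8-negative T cells thus held transcripts shared with CD8 T cells, such as Klrd1 at 573 and 455 CPM. These sums do not say how many of the cells carried them.

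Glycolysis and interferon genes were also higher in part. Of 12 glycolysis and hypoxia genes, 9 were higher than in the other CD8-negative T cells, with medians of 1.06 and 0.75, and 6 of 15 were higher than in CD8 T cells. Ldha, lactate dehydrogenase, was at 1781 and 2379 CPM against 1072 and 1429 CPM in CD8 T cells. Of 10 type I interferon response genes 7 were higher than in CD8 T cells, with medians of 0.96 and 0.85. Ifi27l2a was the most abundant of them, at 3865 and 2983 CPM against 789 and 1025 CPM. Of 12 NF-kB genes 5 were higher than in CD8 T cells and none lower. Of 17 immediate early genes 6 were lower than in CD8 T cells and none higher, with medians of -0.32 and -0.32.

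A split by a Foxp3 UMI, made after values had been seen, set 38 untreated and 34 NAM members with a UMI (median depth 4863 and 4304.5 UMIs) against 21 and 26 without one (4185 and 4112). Foxp3 is itself a rule gene, and all 7 and 12 members with only 2 rule genes lay on the side without it. The values on each side are therefore a description, and nothing is read from the number of genes that differed. Ccr2 was at 285 and 373.5 CPM with Foxp3 and 95.6 and 142 CPM without. Gzmb was at 893 and 1094 CPM with Foxp3 and 278 and 608 CPM without, and Batf at 360 and 242 CPM against 182 and 117 CPM. The reverse order was seen for Ccr7, the receptor for lymph node homing, at 503 and 664 CPM with Foxp3 and 1790 and 1166 CPM without. Cxcr6, a receptor of tissue-resident T cells, was at 126 and 79.1 CPM against 348 and 342 CPM.

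A second split, by a Klrg1 UMI, gave 25 untreated and 23 NAM members with it (median depth 5193 and 3966 UMIs) and 34 and 37 without (4110.5 and 4370). Klrg1 was not used by the rule. Only genes of the lists and a few others picked by hand were looked at. Of 152 such genes with 30 or more UMIs per library, 16 were higher with Klrg1 in both libraries. In each case the interval left out 0, and none was lower. In all, 1516 genes had that many UMIs, and no share over them was computed, so nothing is read from the count. Batf was at 408 and 335 CPM with Klrg1 and 214 and 116 CPM without. Ccr2 was at 309 and 457 CPM against 151 and 194 CPM, and the integrin gene Itgb7 at 593 and 457 CPM against 219 and 296 CPM. Glrx, glutaredoxin, was at 710 and 602 CPM against 297 and 296 CPM. Rrm2, H2afz, Stmn1 and the class I genes H2-D1, H2-K1 and B2m were also among the 16. As cells of 1 library are not replicates, these values describe the 2 pools.

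Transcripts of dividing cells were detected in a minority of members, a share that depends on depth. Top2a, a topoisomerase of S and G2 phase, had a UMI in 11 of 59 and 11 of 60 members, and Mki67, which encodes Ki-67, in 10 and 8. After thinning, the Top2a shares were 15.3% and 15.0% in members, 18.8% and 10.5% in CD8 T cells and 8.30% and 7.58% in macrophage-type cells. The Mki67 shares were 6.78% and 5.00% in members, 10.4% and 1.32% in CD8 T cells and 7.51% and 5.02% in macrophage-type cells.

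The last comparison asked how transcript levels in members differed between the NAM and untreated libraries. Of 3164 genes with 30 or more UMIs, 310 (9.8%) were at least 1.5-fold higher with NAM and 282 (8.91%) at least 1.5-fold lower, and the median log2 ratio over all of them was 0.02. With median-of-ratios scaling these counts were 250 and 352. No p-value can be given for these ratios. The interval left out 0 for 465 of 3142 genes (rule genes, mitochondrial genes, Xist and Y genes left out), and 409 of them, 241 higher and 168 lower with NAM, passed the filters on detection, on single-cell dominance and on RNA from non-T cells.

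The rule genes are described without a test because they chose the cells. Foxp3 was at 206 CPM (162 to 260) in untreated and 178 CPM (137 to 229) in NAM members, and Ikzf2 at 1046 and 1044 CPM. Il2ra was at 353 and 288 CPM, Tnfrsf4 at 1756 and 2019 CPM, and Ctla4 at 469 and 639 CPM. The log2 ratio was 0.44 for Ctla4 and 0.20 for Tnfrsf4, the latter at -0.10 with the C1q share under 0.05%. That of Ctla4 was as low as 0.09, and its interval took in 0 under 4 of 15 alternatives.

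Of the 12 genes named as higher with NAM, the one with most UMIs was Cdk4 (chr10:127063534-127067920, plus strand), the cyclin-dependent kinase of G1 phase. It held 30 UMIs in 16 untreated members and 78 UMIs in 30 NAM members, 84.8 and 224 CPM, a log2 ratio of 1.39 (0.78 to 2.06). In CD8 T cells the ratio was 0.16 (-0.27 to 0.62). Gar1, a subunit of the H/ACA ribonucleoproteins that modify ribosomal RNA, rested on 10 and 41 UMIs, with a ratio of 2.01 (1.04 to 3.22) in members and 0.79 (0.14 to 1.51) in CD8 T cells. Eno3 (an enolase), Tspan3 (a tetraspanin), Fam213a, Chkb (a choline kinase), Akt2 (a kinase of insulin signalling), Ruvbl1 (an ATPase of chromatin complexes), Maea, Tia1 (an RNA-binding protein), Commd2 and Yrdc completed the 12, with ratios from 1.33 to 1.95 on 7 to 11 untreated UMIs and 22 to 28 NAM UMIs. Such totals leave wide intervals, and the lowest bound among them was 0.21.

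Among genes lower with NAM, Dtx3l (chr16:35926511-35939151, minus strand), a ubiquitin ligase that acts with Parp9, had 32 UMIs in 20 untreated members and 3 UMIs in 3 NAM members, a log2 ratio of -3.19 (-5.74 to -1.71). The NAM value is at the floor of 3 UMIs, so the size of the ratio is poorly known. Its partner gene Parp9 held 19 and 18 UMIs. Cbx3 (chr6:51470360-51483704, plus strand), which encodes the heterochromatin protein HP1 gamma, had 151 and 52 UMIs, a ratio of -1.50 (-1.997 to -1.05), and in CD8 T cells it was at -1.38 (-1.73 to -1.04). The syndecan gene Sdc4 had 68 and 23 UMIs, a ratio of -1.52 (-2.29 to -0.84). Zc3h12d (an RNase that limits cytokine transcripts), Birc6 (an inhibitor of apoptosis), Dpysl2, Jak2 (a kinase of cytokine receptors), N4bp1, Inpp5d (the phosphatase SHIP1), Ppp4r2, Rchy1 and Abhd2 lay between -1.996 and -1.31. Rchy1 was at -0.74 (-1.98 to 0.38) without the 5 members with most UMIs. In CD8 T cells the intervals for Zc3h12d, Dpysl2, Cbx3 and Abhd2 also lay below 0, and those of the other 8 took in 0. In the other CD8-negative T cells those of Birc6, Cbx3, Ppp4r2 and Abhd2 lay below 0. There Cbx3 had 9 NAM UMIs and the other genes named 2 each. In macrophage-type cells the intervals of 8 of the 12 lay below 0, among them Cbx3 at -0.99 (-1.09 to -0.89), Abhd2 at -0.97 (-1.19 to -0.75), Sdc4 at -0.84 (-0.89 to -0.80), Jak2 at -0.67 (-0.92 to -0.42) and Birc6 at -0.61 (-0.77 to -0.45). The interval of Rchy1 lay above 0 in macrophage-type cells, at 0.17 (0.02 to 0.32). Sdc4 was more abundant there (544 and 303 CPM) than in members (192 and 66.2 CPM), and the part of such RNA in its ratio was not tested.

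**Figure D4:**
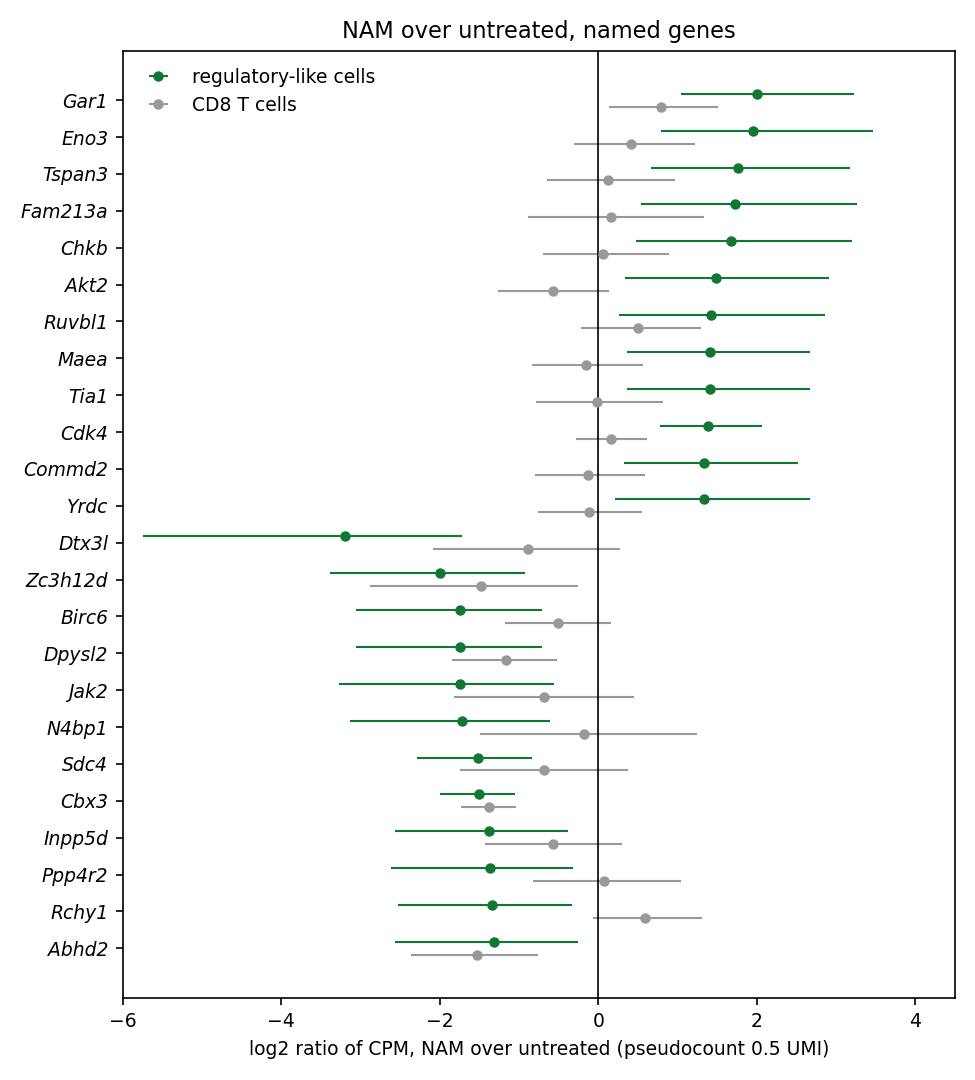
Log2 ratio of summed CPM, NAM over untreated (x axis), for the 12 highest and 12 lowest named genes, regulatory-like cells in green and CD8 T cells in grey, with exact 95% conditional binomial intervals. In members the intervals of all 24 genes leave out 0, which was a condition for naming them.

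In the lists that follow, genes of the rule are left out. Regulatory T cell factors had a median of -0.36 over the 9 genes with enough UMIs. None was 1.5-fold higher and 1, Batf, was 1.5-fold lower. Batf was at 303 CPM (untreated) and 198 CPM (NAM), a ratio of -0.60 (-1.07 to -0.16), and Rora, a nuclear receptor of tissue lymphocytes, at 348 and 247 CPM, a ratio of -0.49 (-0.91 to -0.08). With cells thinned both intervals took in 0, and Batf was then at -0.22 (-0.86 to 0.41). The suppressive effector gene Izumo1r was at 277 and 164 CPM, a ratio of -0.75 (-1.25 to -0.27), but among members with a Foxp3 UMI it was -0.32 (-0.90 to 0.24). Of the suppressive effectors 3 of 8 were lower (Ebi3, Fgl2 and Izumo1r) and none higher, but the intervals of Ebi3 and Fgl2 took in 0. Of the costimulatory and TNF receptors 1 of 11, the activation marker Cd83, was lower. Icos was at 619 and 489 CPM, with a UMI in 53 of 59 and 42 of 60 members.

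Genes of tissue and tumour regulatory T cells did not move together, with 1 of 15 higher (Penk), 2 lower (Il1rl1 and S100a4) and a median of 0.10. Il1rl1 (chr1:40429570-40465415, plus strand), the interleukin 33 receptor, had 32 UMIs in 13 untreated members and 9 UMIs in 6 NAM members, a ratio of -1.75 (-3.06 to -0.71), and -1.86 (-3.37 to -0.70) among members with a Foxp3 UMI. A single untreated member held 12 of the 32 UMIs. S100a4 was at 831 and 541 CPM, a ratio of -0.62 (-0.89 to -0.35), but was 0.17 among members with a Cd4 UMI. Penk (chr4:4133531-4138819, minus strand), which encodes proenkephalin, was at 673 and 1125 CPM, a ratio of 0.74 (0.50 to 0.98), and turned to -0.37 (-0.68 to -0.07) among members with a Foxp3 UMI. A single NAM member held 137 of the 391 Penk UMIs. Areg, amphiregulin, had 92 and 63 UMIs, 43 of the latter in 1 cell, and its direction changed with the weighting of cells and with thinned counts.

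**Figure D5:**
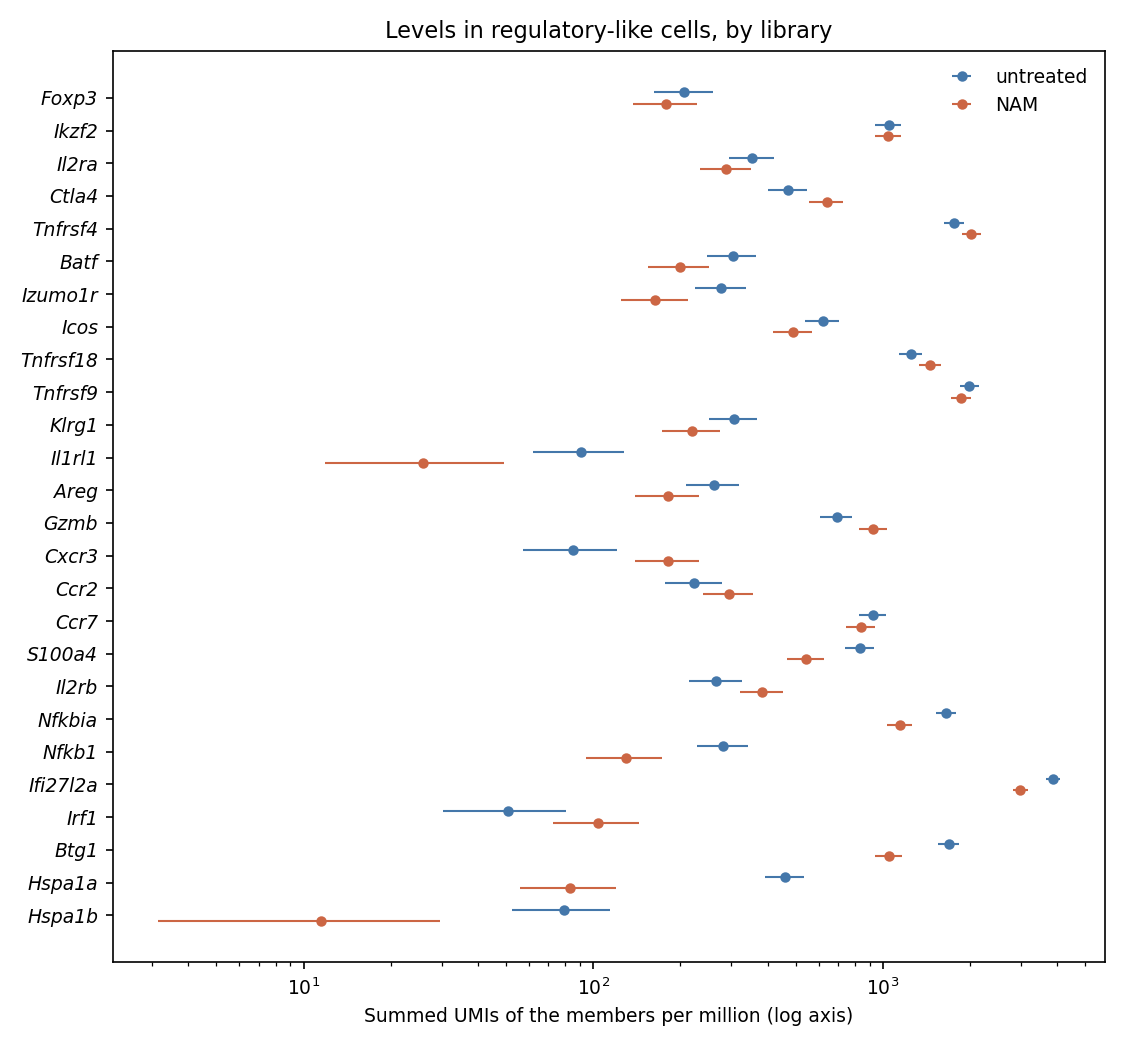
Level in members (summed UMIs scaled to CPM, x axis, log axis) for rule genes and genes of the lists, untreated in blue and NAM in orange, with exact 95% Poisson intervals. The intervals of Il1rl1, Cxcr3, Nfkb1, Nfkbia, Btg1, Hspa1a, Hspa1b and others do not overlap between the libraries, and those of Foxp3, Ikzf2, Ccr7 and others do. The genes were picked by hand and no share over all genes was computed, so nothing is read from how many overlap.

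Chemokine receptors and integrins had 1 of 12 genes higher and 1 lower. The higher one was Cxcr3 (chrX:101731535-101734269, minus strand), the receptor for interferon-induced chemokines, with 30 UMIs in 17 untreated members and 63 UMIs in 27 NAM members, 84.8 and 181 CPM, a ratio of 1.08 (0.45 to 1.77). After thinning 11 of 59 and 22 of 60 members held a UMI, and among members with Foxp3 the ratio was 1.31 (0.55 to 2.16). Among members with a Cd4 UMI it was 0.79 (-0.18 to 1.82), an interval that took in 0. In CD8 T cells it was 0.09 (-0.69 to 0.93). Ccr7 was at 922 and 837 CPM and Ccr2 at 223 and 293 CPM, both with intervals of the ratio that took in 0.

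Of 8 cytotoxic effector genes 4 were 1.5-fold higher and 1, Ccl3, lower, with a median of 0.52. The log2 ratio of Ccl3, -0.69, turned to 1.46 where a Cd4 UMI was required, to 0.015 with the rule applied to thinned counts and to 0.059 without the 5 deepest members, and that of Ccl4, 0.61, to -0.41 with the C1q share under 0.05% and to -0.045 with no limit on it. Gzmb was below that fold, at 693 and 926 CPM, a ratio of 0.42 (0.17 to 0.66) whose interval took in 0 with cells thinned, with a UMI in 23 of 59 (39.0%) and 38 of 60 (63.3%) members and, thinned, in 22 and 34. In CD8 T cells it was 0.91 (0.70 to 1.14). The 4 genes past the fold were Ctsw (12 and 29 UMIs), Klrd1 (12 and 27), Ccl4 (71 and 107, of which 1 NAM cell held 44) and the chemokine gene Xcl1 (1 and 32 UMIs, the latter in 6 cells). Ly6c1 had 6 and 30 UMIs. These genes were high in CD8 T cells or in the other CD8-negative T cells, and 12 NAM members against 7 untreated ones held only 2 rule genes. The part of such cells in the ratios was not tested for Ctsw, Klrd1, Ly6c1 and Xcl1, which had too few UMIs among members with Foxp3.

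Of 4 helper T cell factors and cytokines with enough UMIs 3 were lower (Il5, Il13 and Tnfsf8) and none higher, and they came from few cells. Il13 (84 UMIs) and Il5 (38 UMIs) were found in 1 untreated member and in no NAM member. Tnfsf8, CD30 ligand, had 32 UMIs in 8 untreated members and 2 UMIs in 1 NAM member. Il2 had 21 and 2 UMIs, Lta 19 and 3, and Ifng 18 and 4, each below the minimum of 30 UMIs over both libraries.

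Signalling genes of the NF-kB pathway had 1 of 12 higher (Bcl3) and 1 lower (Nfkb1), with a median of -0.09. The interval of Bcl3 took in 0. Nfkb1, which encodes the p105 and p50 subunit, was at 280 and 129 CPM, a ratio of -1.10 (-1.65 to -0.59), and -0.65 (-1.08 to -0.23) in CD8 T cells. Nfkbia (chr12:55489410-55492647, minus strand), the inhibitor that the pathway itself induces, was at 1651 and 1142 CPM, a ratio of -0.53 (-0.72 to -0.35), whereas in CD8 T cells it was 0.45 (0.25 to 0.66). Of the interleukin 2 receptor and STAT5 genes 1 of 11 was higher (Socs1) and 1 lower (Socs2), but both intervals took in 0. Il2rb, the shared beta chain, was at 266 and 383 CPM, a ratio of 0.52 (0.13 to 0.92). Its interval took in 0 in 5 of 15 alternatives, and among members with a Cd4 UMI the ratio was 0.06 (-0.49 to 0.60). Of these alternatives, other UMI minimums and another pseudocount could not change the interval, and equal weight per cell gave none. The kinase gene Pim1 was at 826 and 604 CPM, a ratio of -0.45 (-0.71 to -0.19), and at -0.25 (-0.63 to 0.12) among members with a Cd4 UMI. Among T cell receptor genes 1 of 10 was higher and 2 were lower (Ptpn22 and Ptpn6), but the intervals of both lower genes took in 0. Among inhibitory receptors none of 4 passed the fold.

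Immediate early genes had 1 of 15 higher (Nr4a1) and 3 lower (Fos, Jun and Klf6). The interval of Jun took in 0. Fos changed its direction with the rule applied to thinned counts and without the 5 members with most UMIs. Nr4a1, an orphan receptor induced by antigen receptor signalling, was at 105 and 207 CPM, a ratio of 0.98 (0.39 to 1.60), but 0.49 (-0.20 to 1.20) among members with a Foxp3 UMI. Klf6 was at 218 and 115 CPM, a ratio of -0.91 (-1.51 to -0.35), but -0.55 (-1.27 to 0.13) with cells thinned and -0.25 (-0.99 to 0.46) where a Cd4 UMI was required. Cell cycle inhibitors and survival genes had 2 of 10 higher (Cdkn1a and Tsc22d3) and 4 lower (Btg1, Cdkn1b, Cdkn2c and Bcl2l1). Among the lower genes, the interval of Cdkn2c took in 0. The interval included 0 under 8 of 14 alternatives for Tsc22d3, 6 of 14 for Bcl2l1, 4 of 15 for Cdkn1a and 1 of 8 for Cdkn1b. Btg1, which restrains proliferation, was at 1685 and 1047 CPM, a ratio of -0.69 (-0.88 to -0.50), and -0.44 (-0.58 to -0.30) in CD8 T cells. Cdkn1b, the cyclin kinase inhibitor p27, had 23 and 9 UMIs, and Cdkn1a, p21, had 50 and 76. Proliferation genes had 3 of 18 higher (Tyms, Rrm2 and Mcm6) and 3 lower (Mki67, Ccnb2 and Ube2c), with a median of 0.05. The intervals of Mki67 and Ccnb2 took in 0, and only 1 gene of the list had an interval below 0. Rrm2 was at 0.67, and at -0.067 where a Foxp3 UMI was required, and its interval included 0 under 6 of 13 alternatives; that of Mcm6 did so under 6 of 14. Tyms, thymidylate synthase, had 22 and 50 UMIs, a ratio of 1.19 (0.46 to 2.00), while Mki67 had 24 and 12.

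Interferon gamma response and MHC class I genes had 3 of 18 higher (Irf1, Iigp1 and Socs1) and none lower, with a median of 0.17. The interval of Socs1 took in 0. The log2 ratio of Iigp1 was 0.68, and -0.033 where a Foxp3 UMI was required, and its interval included 0 under 5 of 14 alternatives. Irf1, the first factor of that response, had 18 and 36 UMIs, a ratio of 1.01 (0.17 to 1.93), but 0.81 (-0.23 to 1.94) among members with a Foxp3 UMI and 0.25 (-0.85 to 1.38) with C1q under 0.05%. The class I gene H2-D1 was at 9161 and 11173 CPM, a ratio of 0.29 (0.22 to 0.35), and 0.086 with C1q under 0.05%, where the interval took in 0. Of 11 type I interferon genes 1 was higher and none lower, and that one, Rsad2, had 20 of its 25 NAM UMIs in 1 cell. Naive and circulating T cell genes had 1 of 6 higher, the Ly6c1 named above. Glycolysis and hypoxia genes had none of 14 past the fold in either direction, and the highest ratio with an interval above 0 was that of Ldha, 0.42 (0.27 to 0.57), beside 0.41 (0.27 to 0.57) in CD8 T cells. With cells thinned the ratio in members was 0.17 (-0.04 to 0.39). Of 6 measurable genes of NAD synthesis and use, the pathway that NAM feeds, 1 was past the fold, Nadk, NAD kinase, with 14 UMIs in 11 untreated and 33 UMIs in 25 NAM members, a ratio of 1.23 (0.32 to 2.28), whose interval took in 0 with C1q under 0.05%. Nampt, which converts NAM into its mononucleotide, had 17 and 14 UMIs.

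Of 11 heat shock genes measured, 2 were lower past 1.5-fold and none higher, with a median of 0.0066. Hspa1a was at 458 and 83.4 CPM, a ratio of -2.44 (-3.08 to -1.88), and in CD8 T cells at -3.00 (-3.41 to -2.63). Its UMIs came from 19 of 59 and 11 of 60 members, and 1 untreated member held 58 of 162. Without the 5 members with most UMIs in each library the ratio was -0.68 (-1.42 to 0.02). Hspa1b, a near-identical copy whose reads may be divided with Hspa1a, had 28 and 4 UMIs. The other 9 genes stayed within 1.5-fold.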

How the data were processed

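The deposited files were gene-by-cell matrices of UMI counts, 1 per library. The authors made these counts with Cell Ranger from 10x 3′ libraries on mm10, and the gene annotation they used is not given in the sources used here. Every barcode had at least 1000 genes, at least 3000 UMIs and at most 10% mitochondrial UMIs. Counts were used as deposited and no doublet caller was run. The members, the gene lists and the marker lists were chosen with earlier results of these data known.

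UMIs were summed over the cells of each set and library and scaled to CPM. Levels carry exact Poisson intervals, shares exact Clopper-Pearson intervals and ratios exact conditional binomial intervals, each at 95%. Ratios are log2 with a pseudocount of 0.5 UMI. No p-value was computed, because each group was 1 library. A gene counted as higher or lower past 1.5-fold. NAM ratios needed 30 or more UMIs over both libraries, and ratios between cell sets 30 or more in each library. Shares of cells with a UMI were also taken after thinning each cell to 3000 UMIs.

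The genes named for NAM were the 12 highest and 12 lowest ratios whose interval left out 0, with a UMI in at least 10% of members of the higher library, no cell holding over 25% of the UMIs there, and a CPM in cells without Cd3 under 10 times that of members. For cell sets they were the 12 highest and 12 lowest by the ratio nearer to 0 of both libraries, with the same filters. Rule genes, mitochondrial genes, Xist and Y genes were left out. Genes of 20 lists were named from those lists, and other genes, such as Parp9, and the genes of the splits by Foxp3 and Klrg1 were chosen after their values were seen. Single results for a few list and marker genes are not reported here. Alternatives were median-of-ratios scaling, equal weight per cell, thinning, other UMI minimums, another pseudocount, and stricter or looser member rules. Scripts were tested on simulated data. Python 3.11.15, NumPy 2.4.6, SciPy 1.17.1, pandas 2.3.3 and matplotlib 3.10.9 were used, and coordinates are those of GENCODE vM21 on GRCm38, the assembly mm10 names.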

Additional observations from a re-analysis of the deposited data

Results flagged for a closer look

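Of 234 genes looked at, 4 had NAM ratios whose counting intervals lay on opposite sides of 0 in regulatory-like cells and in CD8 T cells. With 1 library per group the difference between the cell sets was not tested. Nfkbia, an inhibitor of NF-kB, was at -0.53 (-0.72 to -0.35) on the log2 scale in regulatory-like cells and at 0.45 (0.25 to 0.66) in CD8 T cells. Ifi27l2a, an interferon-induced gene, was at -0.37 (-0.49 to -0.26) and 0.38 (0.20 to 0.55), but its member value was -0.12 (-0.28 to 0.034) in cells thinned to 3000 UMIs. The chemokine gene Ccl4 was at 0.61 (0.17 to 1.07) and -0.36 (-0.60 to -0.12), with 41.1% of its NAM UMIs in 1 member. The member value of Ccl4 turned to -0.41 with the C1q share under 0.05% and to -0.045 with no limit on that share. 2810417H13Rik was at 0.38 (0.0015 to 0.77) and -0.58 (-0.93 to -0.23), but its member value was -0.062 in cells thinned to 3000 UMIs and its interval included 0 under 8 of 15 alternatives.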

How the results depend on the processing

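No paired analysis was possible because each group was 1 library and the labels give no replicate numbers, and leaving out a replicate was not possible for the same reason. The log2 ratio of the share of all cells ran from -0.35 to -0.10 over the alternative member rules and that of the share of T cells from -0.57 to -0.33. Among the recomputed NAM ratios of single genes, 127 moved beyond their counting interval. A further 22 changed sign, counted only for genes whose main interval left out 0, and 3039 were in neither count. A change of sign in other genes was not counted. Of 90 genes whose NAM interval left out 0, 53 had an interval that took in 0 in at least 1 alternative. Other UMI minimums and another pseudocount could not change a gene's interval, and equal weight per cell gave none. The totals of alternatives and the 3039 ratios include these settings.

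With a minimum of 1 UMI, 2724 genes were higher and 3065 lower with NAM, 1071 higher and 970 lower than in the other CD8-negative T cells, and 1185 higher and 789 lower than in CD8 T cells. With a minimum of 100 UMIs these counts were 40 and 40, 78 and 19, and 91 and 51, and the NAM median of cytotoxic effectors over the other CD8-negative T cells was 0.46. With cells thinned to 3000 UMIs, 147 genes were higher and 140 lower with NAM, and 138 were higher than in the other CD8-negative T cells. With a Cd4 UMI required, 168 genes were lower with NAM. With C1q under 0.05%, 135 were higher and 46 lower than in the other CD8-negative T cells, and the untreated median of suppressive effectors over them was -0.053.

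The changes of sign that follow are only those counted above. With cells thinned the log2 NAM ratios were 2810417H13Rik -0.062, Areg 0.26, Dnajb1 0.23 and Eno1 -0.056. With the rule applied to thinned counts they were Areg 0.25, Ccl3 0.015 and Fos 0.086. With each cell weighted equally they were Areg 0.34, Dnajb1 0.029 and Hspa8 0.0014. With a Foxp3 UMI required they were Iigp1 -0.033, Penk -0.37 and Rrm2 -0.067, and with a Cd4 UMI required Ccl3 1.46 and S100a4 0.17. With C1q under 0.05% they were Ccl4 -0.41 and Tnfrsf4 -0.10, and with no C1q limit Ccl4 -0.045. Without the 5 members with most UMIs they were Ccl3 0.059, Dnajb1 0.36, Fos 0.15 and Gapdh -0.0068. The causes were not tested, beyond the smaller number of cells, genes or UMIs that a stricter setting leaves. Leaving out members with over 1% of UMIs on other cell types' markers, or the member with Il13 and Il5, were alternatives chosen after seeing the data. Levels near the 3-UMI floor of 8.48 and 8.63 CPM have wide intervals and are poorly known at this depth.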
